A study of Mus musculus with 6 samples.

Results

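The limb mesenchyme transcription factors are 9 genes, Shox2, Tbx15, Prrx1, Prrx2, Twist1, Twist2, Pitx1, Meis1 and Meis2, that pattern the skeleton-forming mesenchyme of the limb bud. They were taken as every probe set whose platform annotation gives exactly 1 gene symbol, that symbol being one of the 9, which gave 22 of 34945 named probe sets. A probe set is the group of short probes on an Affymetrix array that reports on a transcript. The names were given in advance and no value of these arrays entered the choice rule, although earlier results of the same arrays were known when the genes were proposed.

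The samples were sorted bone marrow fractions of 3 Grem1;TdTomato mice on a C57BL/6J background, aged 6 to 8 weeks and recorded as male, all of which received tamoxifen by mouth. The Grem1+ fraction (3 arrays) is described only as sorted for Grem1, and the labels do not name the Cre driver or say which cells recombine. The Grem1- fraction (3 arrays) was the non-recombined population of the same mice, negative for CD45, CD31 and Ter-119, a gate that is given for no other fraction. Values are log2 expression values, so a difference of 1 is a doubling, and differences are Grem1+ minus Grem1- within a mouse.

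Prrx1 and Prrx2 are paired-class homeodomain factors of early limb bud mesenchyme, and Shox2, another homeodomain factor, is needed for the upper segment of the limb. Tbx15 is a T-box factor of limb and shoulder girdle, Pitx1 sets hindlimb identity, and Twist1 and Twist2 are basic helix-loop-helix (bHLH) factors that bind E-boxes and restrain bone formation. Meis1 and Meis2 belong to the TALE class of homeodomain factors, mark the proximal limb bud and bind DNA with PBX partners, and Meis1 also acts in haematopoietic stem cells and megakaryocytes.

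The promoter windows of 4 members are shown because they stand for the contrasts described below, with Shox2 as the member with the largest difference, Prrx1 as the member with the most probe sets, and Twist1 and Twist2 as close relatives with unlike values. Each runs 5′ to 3′ on the gene's strand from 250 bases before to 50 after the RefSeq transcript start (GRCm38.p6), and capitals mark matches to the motifs named below. The places are chr3:66981722-66982021 on the minus strand for Shox2, chr1:163313601-163313900 on the minus strand for Prrx1, chr12:33957421-33957720 on the plus strand for Twist1 and chr1:91801211-91801510 on the plus strand for Twist2.
Shox2: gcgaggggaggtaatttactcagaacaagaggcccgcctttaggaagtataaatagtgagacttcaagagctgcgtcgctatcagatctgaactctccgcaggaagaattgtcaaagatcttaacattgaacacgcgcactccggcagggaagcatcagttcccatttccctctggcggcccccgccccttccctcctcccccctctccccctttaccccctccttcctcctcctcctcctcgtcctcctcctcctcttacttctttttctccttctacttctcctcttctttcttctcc
Prrx1: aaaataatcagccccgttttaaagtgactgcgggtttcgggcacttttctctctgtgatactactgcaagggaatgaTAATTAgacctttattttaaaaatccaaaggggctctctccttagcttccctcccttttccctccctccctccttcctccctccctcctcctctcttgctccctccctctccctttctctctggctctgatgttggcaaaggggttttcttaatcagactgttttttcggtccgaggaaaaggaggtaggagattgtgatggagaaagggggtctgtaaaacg
Twist1: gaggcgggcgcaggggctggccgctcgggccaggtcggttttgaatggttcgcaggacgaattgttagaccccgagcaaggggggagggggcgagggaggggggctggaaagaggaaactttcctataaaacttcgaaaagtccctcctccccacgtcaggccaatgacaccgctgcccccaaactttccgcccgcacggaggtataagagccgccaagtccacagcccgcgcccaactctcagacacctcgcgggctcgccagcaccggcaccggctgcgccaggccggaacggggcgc
Twist2: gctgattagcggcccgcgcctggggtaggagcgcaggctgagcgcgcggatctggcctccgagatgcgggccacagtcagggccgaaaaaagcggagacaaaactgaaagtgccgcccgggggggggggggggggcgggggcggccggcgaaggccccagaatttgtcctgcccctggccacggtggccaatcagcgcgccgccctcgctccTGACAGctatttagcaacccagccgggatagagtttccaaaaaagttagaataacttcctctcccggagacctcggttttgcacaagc

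RefSeq promoter windows were found for 7 of the 9 members, all but Tbx15 and Pitx1. The E-box CANNTG, searched on both strands, was in 1 of these 7 windows (Meis1) and in 72.3% of all 32851 windows of this length. The homeodomain core TAATTA was in 1 of 7 (Prrx1) and in 5.29% of all windows, and the MEIS motif TGACAG was in 1 of 7 (Twist2) and in 19.2%. The T-box element AGGTGTGA was in 0 of 7 and in 1.28%. No member window held more than 1 match, so overlap between matches could not arise. The CpG count was 6 in Prrx1, 11 in Shox2, 13 in Meis2, 15 in Meis1, 25 in Twist2, 27 in Twist1 and 28 in Prrx2, against a median of 7 over all windows, so 6 of 7 members lay above that median. These are letter counts in a short window and say nothing about which factors bind there.

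The arrays had medians of 3.74 to 3.81, and the fractions were checked by their markers. Grem1 was at 4.49, 4.14 and 8.61 in Grem1+ of mice 1, 2 and 3, against 3.69, 3.75 and 3.70 in Grem1-, so the sorted gene itself was clearly above the rest on 1 array. Of 10 chondrocyte markers 9 were higher in Grem1+ and 0 lower, with a mean level of 10.81 to 11.00 in Grem1+ and 6.90 to 7.64 in Grem1- and a summed log2 level of 108.1 to 110.0 and 69.0 to 76.4. Of 12 pan-haematopoietic markers 0 were higher and 9 lower, with a mean level of 6.46 to 7.40 in Grem1+ and 9.79 to 9.83 in Grem1- and a summed level of 77.5 to 88.9 and 117.4 to 117.9, and none of the 12 was below log2 4 throughout either fraction. Ptprc, the gene of CD45, was at 7.29 to 10.56 in Grem1+ and 11.78 to 12.37 in Grem1- on one probe set and at 2.53 to 3.71 in Grem1+ and 8.37 to 9.38 in Grem1- on another. The fraction gated as CD45 negative had the higher level on both, while the Grem1+ level was high on the first and below log2 4 on the second, and Pecam1, the gene of CD31, was at 2.81 to 3.71 in Grem1+ and 4.23 to 5.25 in Grem1-. Osteoblast markers had 3 of 5 tested genes higher and 0 lower, B lineage markers 0 of 4 higher and 3 lower, and endothelial markers 0 of 3 in either direction. Of 7 skeletal muscle markers 0 passed in either direction (1 was tested), and Myod1 and Myog were below log2 4 on all 6 arrays. The tested marker, Tnnt3, stood at 7.89, 8.84 and 9.75 in Grem1+, against 6.84, 4.62 and 7.24 in Grem1- (difference 2.60, limma adjusted p = 0.0719). For Gapdh, the 3′ control probe set exceeded the 5′ one, a gap that widens with RNA degradation, by 3.58 ± 0.51 in Grem1+ and by 2.66 ± 0.34 in Grem1- (SD of log2 values over 3 arrays). For beta-actin the same gap was 0.09 ± 0.11 in Grem1+ and 0.16 ± 0.02 in Grem1-, and so not wider in Grem1+. Xist was at 10.60 in Grem1+ and 11.04 in Grem1- of mouse 3 and at most 2.99 on the other 4 arrays, which goes against the male label of that animal, and values without mouse 3 are given for the called members, partners and limb genes. The part of these shifts in the differences below was not tested, and fewer cells of a type cannot be told apart from less RNA per cell.

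Shox2 and Tbx15 were the only members that passed the test, both higher in Grem1+. Twist1, Prrx1 and 1 probe set of Meis2 had higher means in Grem1+ by between 1.02 and 1.96 without passing, Pitx1 had nearly equal means, and Prrx2, Twist2 and Meis1 did not reach the level at which a probe set was tested. The test took probe sets with 3 or more of the 6 arrays above log2 4, a limit that was chosen and not measured, and 9 member probe sets of 6 genes met it. Of these 9, 2 were called higher and 0 lower by limma at an adjusted p of 0.05, while 6 had an unadjusted p under 0.05, all of them higher, a threshold met by 18.3% of all tested probe sets as higher and by 16.7% as lower. Over all 18157 tested probe sets, 10.1% were called higher and 7.76% lower. The 9 include 2, of Shox2 and Meis2, with no Grem1- array above log2 4, so these entered only through their Grem1+ arrays.

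**Figure D1:**
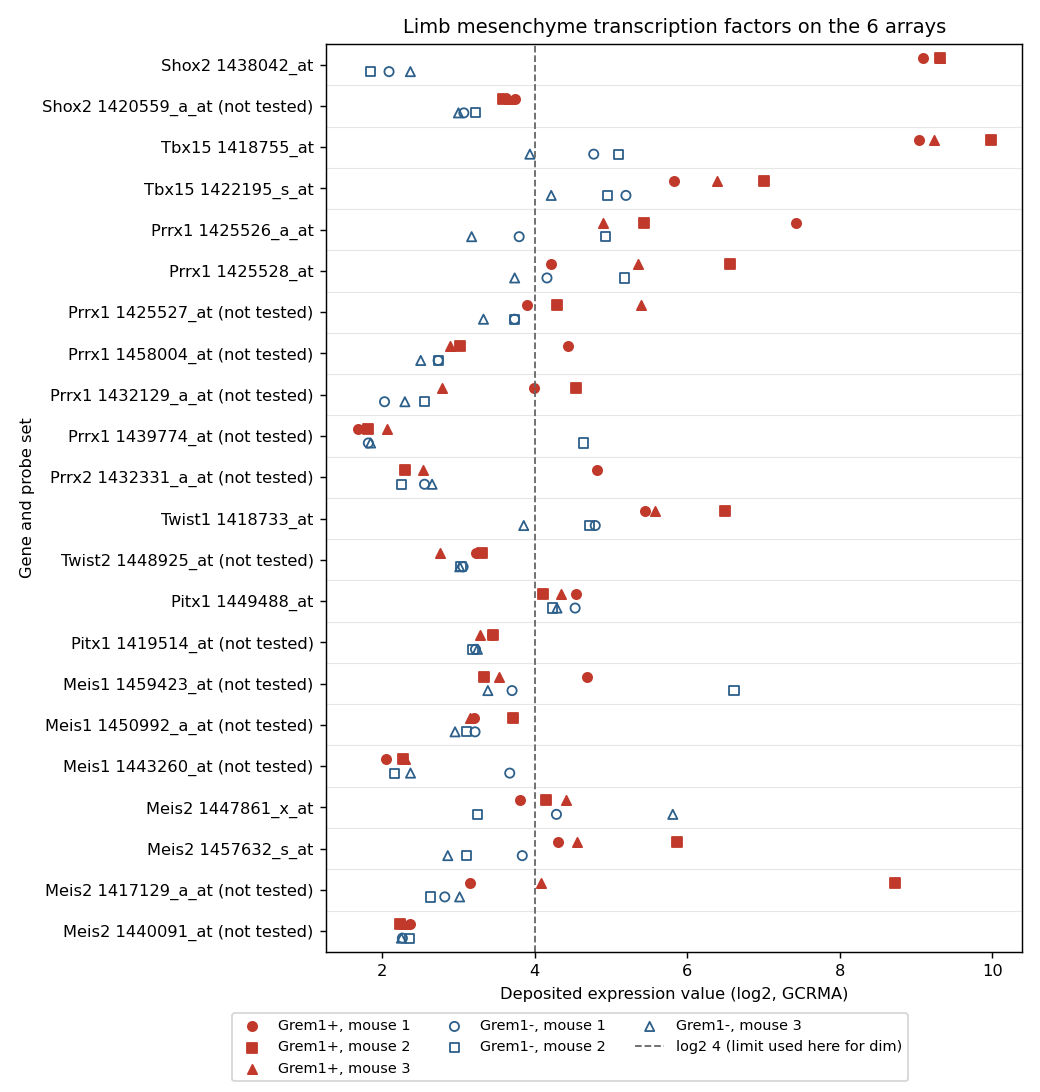
Log2 expression value (horizontal axis) of each of the 22 member probe sets (rows) on the 6 arrays, Grem1+ as filled red and Grem1- as open blue symbols, with the marker shape giving the mouse and a dashed line at log2 4. The Grem1+ points of Shox2 1438042_at and Tbx15 1418755_at lie at 9.03 to 9.98, all Grem1- points of these rows at or below 5.10, while most other rows have points near or left of the line.

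Shox2 showed the widest separation of the members. Its probe set 1438042_at stood at 9.10, 9.31 and 9.32 in Grem1+ of mice 1, 2 and 3, against 2.09, 1.85 and 2.37 in Grem1-. Every Grem1+ array was high and every Grem1- array was dim, and the groups did not overlap. The mean was 9.24 ± 0.12 in Grem1+ and 2.10 ± 0.26 in Grem1- (SD, n = 3), a difference of 7.14 (SE 0.30, limma adjusted p = 0.00989), the 14th highest of all tested probe sets. Because all Grem1- arrays lay below log2 4, the size is best read as a bound, and with dim values set to log2 4 Shox2 was at least 37.8-fold higher. The difference was 7.01, 7.46 and 6.95 in the 3 mice and 7.24 without mouse 3. The other Shox2 probe set, 1420559_a_at, whose ID marks it as shared by transcript variants of a gene, read 3.74, 3.59 and 3.66 in Grem1+ and 3.07, 3.22 and 3.00 in Grem1-. It was below log2 4 on all 6 arrays and was not tested, so the high Shox2 signal rests on 1 probe set. The platform annotation assigns the dim probe set to a RefSeq transcript record, but not the bright one.

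Tbx15 was higher in Grem1+ on both of its probe sets, by unequal amounts. Probe set 1418755_at stood at 9.03, 9.98 and 9.24 in Grem1+, against 4.77, 5.10 and 3.93 in Grem1-. Every Grem1+ array was above every Grem1- array by a wide margin, and the Grem1- arrays of mice 1 and 2 were above log2 4. The mean was 9.42 ± 0.50 in Grem1+ and 4.60 ± 0.60 in Grem1- (SD, n = 3), and the difference of 4.82 (SE 0.34, limma adjusted p = 0.00992) was a 28.2-fold ratio and 4.57 without mouse 3. Probe set 1422195_s_at, an ID class that can be shared with other transcripts, stood at 5.83, 7.00 and 6.39 in Grem1+, against 5.19, 4.95 and 4.21 in Grem1-. Its groups did not overlap either, but the arrays of mouse 1 lay close together, and the difference of 1.62 (SE 0.44) missed the threshold (limma adjusted p = 0.0752). Without the replicate block this probe set passed (adjusted p = 0.0391), while with the mean of its probe sets Tbx15 differed by 3.22 (adjusted p = 0.00753). Leaving out any 1 mouse with the block kept ended the calls of Shox2 and of Tbx15 1418755_at (limma adjusted p = 0.0516 to 0.0637), and limma then called 0 of all probe sets, with 4967 to 5158 at an unadjusted p under 0.05. Without the block both passed with any mouse left out (adjusted p = 0.0152 to 0.0199).

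**Figure D2:**
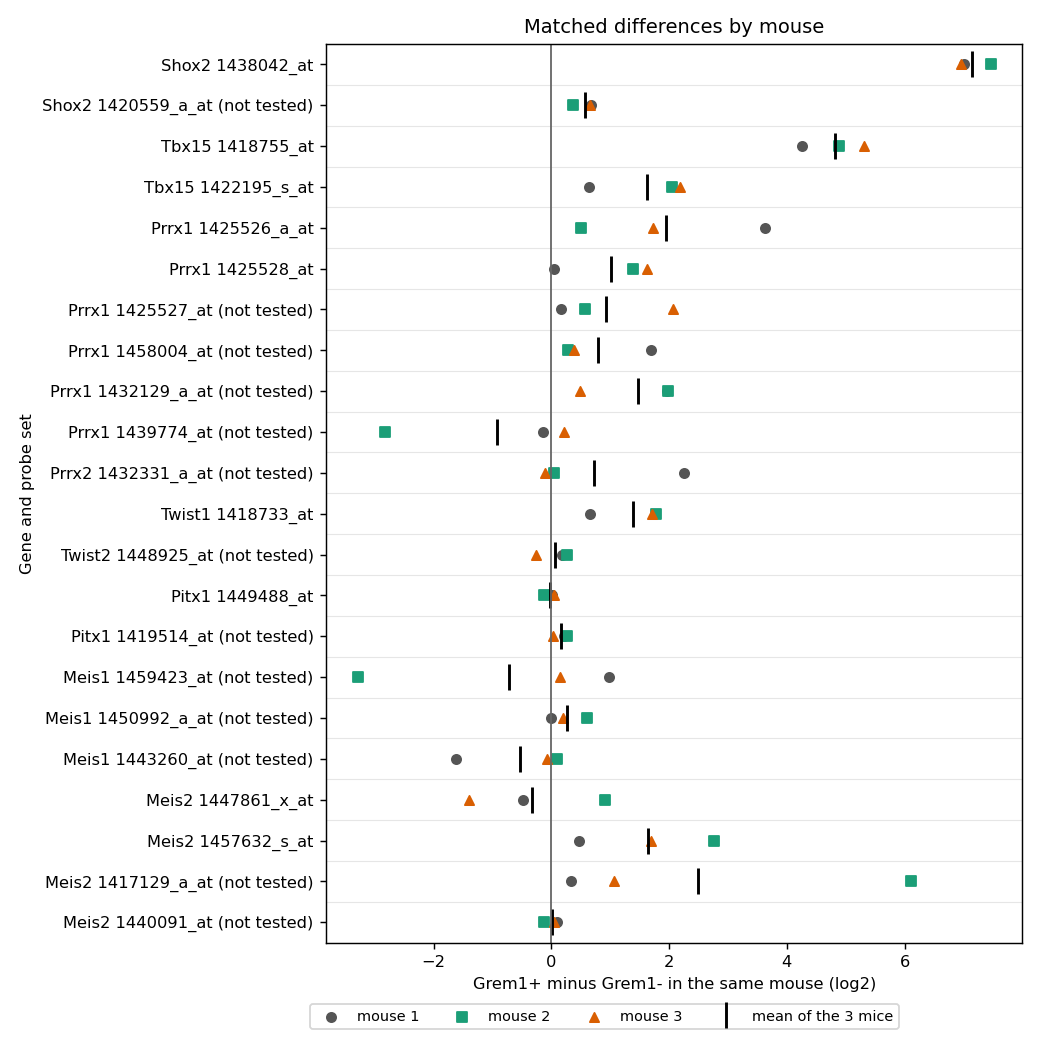
Difference Grem1+ minus Grem1- within each mouse (log2, horizontal axis) for the 22 member probe sets (rows), with a symbol per mouse and a black bar at the mean of the 3. Shox2 1438042_at spans 6.95 to 7.46 and Tbx15 1418755_at 4.26 to 5.31, while Meis2 1417129_a_at runs from 0.33 to 6.10 and Meis1 1459423_at from -3.28 to 0.98.

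Prrx1, whose enhancer is widely used to drive Cre in limb mesenchyme, was covered by 6 probe sets, 2 of which were tested. Probe set 1425526_a_at stood at 7.43, 5.43 and 4.90 in Grem1+, against 3.79, 4.93 and 3.17 in Grem1-. The Grem1+ array of mouse 1 was high, the Grem1- array of mouse 2 was as high as the lowest Grem1+ array, and the groups overlapped. The difference was 1.96 (SE 0.68, limma adjusted p = 0.127) and 2.07 without mouse 3, and it was 1.11 without mouse 1 and 2.68 without mouse 2. Probe set 1425528_at stood at 4.21, 6.56 and 5.35 in Grem1+, against 4.16, 5.17 and 3.73 in Grem1-, again with overlap and with mouse 2 the highest of each fraction. Its difference was 1.02 (SE 0.43, limma adjusted p = 0.183). With the mean of these 2 probe sets Prrx1 differed by 1.49 and passed (limma adjusted p = 0.0293). The 2 probe sets were unlike by mouse, with differences of 3.64, 0.50 and 1.73 on 1425526_a_at and 0.05, 1.39 and 1.62 on 1425528_at. The pass of their mean therefore does not show that they agree. The same fit also lowered the adjusted p of Twist1, whose values it left unchanged.

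The other 4 Prrx1 probe sets did not enter the test. Probe set 1425527_at read 3.90, 4.30 and 5.39 in Grem1+ and 3.73, 3.73 and 3.33 in Grem1-. Probe set 1432129_a_at read 3.99, 4.54 and 2.78 in Grem1+ and 2.03, 2.55 and 2.29 in Grem1-. Both were higher in Grem1+ in each mouse, with all Grem1- arrays dim, as was 1458004_at at 2.88 to 4.43 in Grem1+ and 2.50 to 2.74 in Grem1-. Probe set 1439774_at went the other way through 1 array, with 1.68, 1.81 and 2.06 in Grem1+ and 1.82, 4.63 and 1.84 in Grem1-. Over the 6 Prrx1 probe sets the mean difference thus ran from -0.92 to 1.96, and 5 of the 6 were higher in all 3 mice. Prrx2, its close relative with an overlapping limb role, had 1 probe set, at 4.81, 2.30 and 2.54 in Grem1+ and 2.55, 2.25 and 2.65 in Grem1-. Only the Grem1+ array of mouse 1, which also had the highest Prrx1 1425526_a_at value, was above log2 4, and Prrx2 was not tested.

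Twist1 had higher values in Grem1+ in every mouse without passing the threshold. Its probe set stood at 5.44, 6.50 and 5.57 in Grem1+, against 4.79, 4.72 and 3.85 in Grem1-. The groups did not overlap, though mouse 1 differed by only 0.65, where mice 2 and 3 differed by 1.78 and 1.72. The difference was 1.38 (SE 0.37, limma adjusted p = 0.0749), or 1.22 without mouse 3, and over the alternatives the adjusted p ranged from 0.0471 to 0.249. The lowest of these came with probe sets averaged by gene, where the Twist1 values were the same. With 1 probe set per gene, which also left the Twist1 values unchanged, the limma adjusted p was 0.0693. Twist2, which shares the bHLH domain, read 3.23, 3.30 and 2.75 in Grem1+ and 3.06, 3.03 and 3.01 in Grem1-. All 6 arrays were below log2 4 and the groups overlapped. Of all named probe sets 34.3% were likewise below log2 4 on all 6 arrays.

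Pitx1 was close to equal between the fractions. Probe set 1449488_at stood at 4.53, 4.11 and 4.34 in Grem1+ and 4.53, 4.23 and 4.29 in Grem1-, all just above log2 4. The difference was -0.02 (SE 0.28, limma adjusted p = 0.969). The second probe set read 3.28 to 3.45 in Grem1+ and 3.19 to 3.25 in Grem1-. The signal of both Pitx1 probe sets thus stayed near or below the dim limit in both sorted fractions.

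No probe set of the MEIS genes passed, and several had a single high array. Meis2 probe set 1457632_s_at stood at 4.30, 5.87 and 4.55 in Grem1+, against 3.83, 3.10 and 2.86 in Grem1-, without overlap. Its difference was 1.64 (SE 0.53, limma adjusted p = 0.109), or 0.91 with dim values set to log2 4. Probe set 1417129_a_at read 3.15, 8.73 and 4.08 in Grem1+ and 2.82, 2.63 and 3.01 in Grem1-. Its mean difference of 2.50 came mainly from mouse 2, was 0.70 without that animal, and was not tested because only 2 arrays were above log2 4. The Grem1+ array of mouse 2 thus had the highest value on both of these Meis2 probe sets. Probe set 1447861_x_at, whose ID marks possible cross-hybridisation, had 3.80, 4.15 and 4.40 in Grem1+ and 4.28, 3.24 and 5.81 in Grem1-, a difference of -0.33 (SE 0.53, limma adjusted p = 0.720). The last Meis2 probe set, 1440091_at, lay at 2.23 to 2.37 in Grem1+ and 2.25 to 2.36 in Grem1-.

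None of the 3 Meis1 probe sets was tested. Probe set 1459423_at read 4.68, 3.33 and 3.53 in Grem1+ and 3.70, 6.61 and 3.38 in Grem1-, so the highest Meis1 value was in the Grem1- fraction of mouse 2, the array that also held the single high value of Prrx1 1439774_at. Probe set 1450992_a_at lay at 3.15 to 3.71 in Grem1+ and 2.95 to 3.21 in Grem1-, and 1443260_at at 2.05 to 2.30 in Grem1+ and 2.16 to 3.67 in Grem1-. These ranges overlapped in each case. Markers of haematopoietic stem and progenitor cells, where Meis1 is known to act, had 2 of 8 tested genes higher and 1 lower, with a mean level over 9 genes of 5.22 to 5.77 in Grem1+ and 5.12 to 5.25 in Grem1- and a summed level of 46.9 to 51.9 and 46.1 to 47.3. The lower gene was Kit, a stem cell factor receptor, and the higher ones were Procr and Hoxa9, a homeobox gene that limb mesenchyme also uses, at 8.87, 11.27 and 10.83 in Grem1+ and 6.19, 5.96 and 6.01 in Grem1-. Kit and Myct1 of that list were below log2 4 on all Grem1+ arrays and Myct1 on all Grem1- arrays. Of 6 megakaryocyte markers 0 were higher and 2 of 3 tested were lower, with a mean level of 4.30 to 4.55 in Grem1+ and 4.58 to 5.73 in Grem1- and a summed level of 25.8 to 27.3 and 27.5 to 34.4. Itga2b and Gp9 were below log2 4 on all 6 arrays.

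Counted over all 22 probe sets, whether tested or not, every Grem1+ array lay above every Grem1- array in 11 and below in 0. The same held for 17.2% (above) and 13.9% (below) of all named probe sets. The 11 came from 6 genes, and probe sets of a gene share its transcript, so they are not independent. Only 5 of the 11 were tested, and Shox2 1420559_a_at and Pitx1 1419514_at among the 11 lay below log2 4 on all 6 arrays. The median difference over the 22 was 0.76, against 0.03 over all named probe sets. In 13 of 22 all 3 mice had the higher value in Grem1+, in 6 it was 2 mice, and in 3 it was 1 mouse. Of all named probe sets 26.6% were higher in Grem1+ in all 3 mice and 21.6% lower, while 0 of the 22 were lower in all 3. On 7 of the 22 all Grem1+ arrays were below log2 4.

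**Figure D3:**
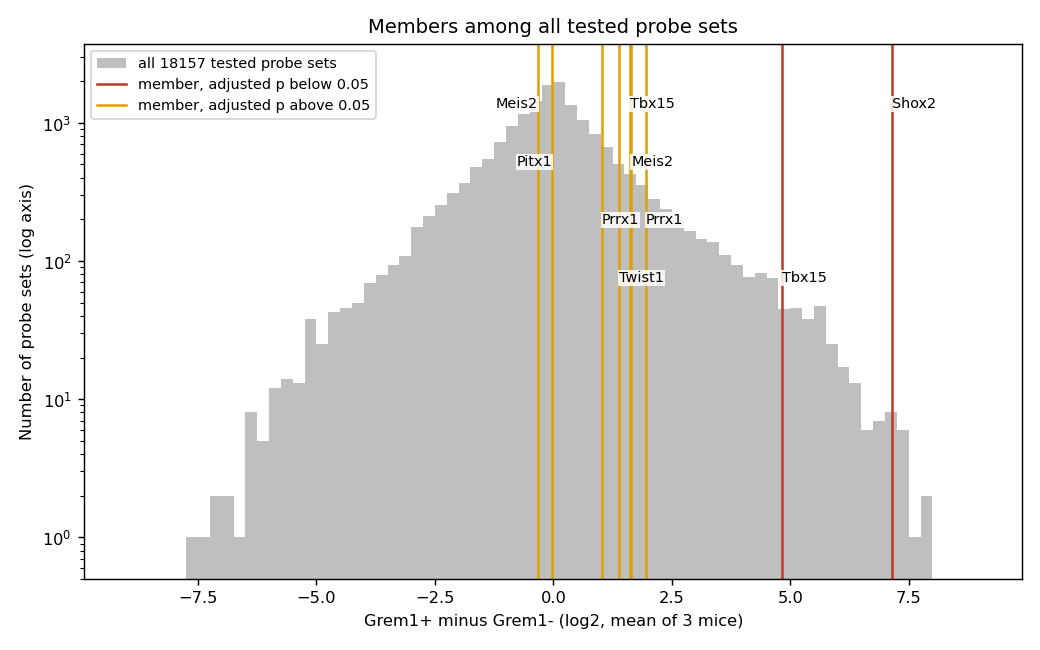
Number of tested probe sets (vertical log axis) by their mean difference Grem1+ minus Grem1- (log2, horizontal axis) in grey, with a vertical line for each of the 9 tested member probe sets, red where the limma adjusted p was below 0.05. Shox2 at 7.14 and one Tbx15 probe set at 4.82 stand in the right tail, and the other 7 lie between -0.33 and 1.96.

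Genes whose values ran most like each member over the 6 arrays were found by the root mean square distance between log2 values centred on their own mean. For Shox2 these were Panx3, a pannexin channel gene, at 0.26 and Ddah1 at 0.26. For Tbx15 they were Prkg2, a cGMP-dependent kinase needed for growth plate cartilage, at 0.13 and Mia at 0.14. The nearest to Prrx1 were Apex1 at 0.30 and Rnd2 at 0.33, and to Twist1 Atad3a at 0.13 and Dvl1 at 0.16. Pitx1, with little variation to match, had Fam178b at 0.03 and Dpep3 at 0.03, and Meis2 1447861_x_at had Cep83 at 0.27 and Bysl at 0.29. A small distance by this measure calls for a like difference between the fractions. That difference was 7.15 for Panx3 and 7.28 for Ddah1, and 4.86 for Prkg2 and 4.63 for Mia. These distances describe likeness over 6 arrays only, and a shared function or regulation was not tested.

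Of 52 partners, relatives and other limb regulators listed beside the members, 49 had a named probe set and 22 were tested. By the tested probe set with the highest mean of each gene, 5 were higher and 1 lower in Grem1+ (limma, adjusted p of 0.05), while over all 10151 genes counted this way 11.1% were higher and 7.81% lower. Of these 22, Pknox2, Irx3, Gli3 and Barx2 had no Grem1- array above log2 4, so they entered the test only through their Grem1+ arrays. The median difference of the 22 genes was 0.47. The median over all tested probe sets, which were not reduced to 1 per gene, was -0.01. Another 27 listed genes had no probe set that reached the test, among them 23 of the 33 other limb regulators with a probe set.

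Among the TALE partners, Pknox2 was higher and Pbx2 lower. Pknox2 stood at 6.78, 8.08 and 4.79 in Grem1+, against 2.66, 3.02 and 3.05 in Grem1-. All Grem1- arrays were dim, and Pknox2 was at least 5.86-fold higher (difference 3.64, SE 0.73, limma adjusted p = 0.0405), a call lost with dim values set to log2 4 (adjusted p = 0.0850). Pbx2, a DNA-binding partner of MEIS proteins, stood at 8.36, 7.21 and 7.30 in Grem1+, against 9.59, 9.70 and 10.29 in Grem1-. Its difference was -2.24 (SE 0.45, limma adjusted p = 0.0409), and its 3 tested probe sets, from -5.14 to -2.24, all passed. Without mouse 3 the difference was 4.59 for Pknox2 and -1.87 for Pbx2. In fits without the block, which alone kept calls with a mouse left out, Pknox2 lost its call without mouse 1 (adjusted p = 0.142) or mouse 2 (0.0965), and Pbx2 without mouse 2 (0.0907) or mouse 3 (0.108). Both calls ended without the filter on dim probe sets (adjusted p = 0.105 for Pknox2 and 0.0874 for Pbx2). The lost Pbx2 calls are those of its probe set with the highest mean, which had the smallest difference of the 3. With the mean of its 3 probe sets Pbx2 differed by -3.58 (limma adjusted p = 0.00538). That fit also lowered the adjusted p of Pknox2, whose values it left unchanged, to 0.0243. Pknox1 (0.30, SE 0.62), Meis3 (0.16, SE 0.30) and Pbx4 (0.13, SE 0.30) did not pass.

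Of 6 tested bHLH partners and relatives of the TWIST proteins, 0 passed in either direction by limma on the probe set with the highest mean, and 0 had an unadjusted p under 0.05. Tcf4, an E-protein that pairs with TWIST proteins, stood at 10.56, 9.40 and 9.08 in Grem1+ and 9.51, 9.21 and 8.65 in Grem1- on that probe set, a difference of 0.55 (SE 0.33). Its other 4 tested probe sets all passed as higher, with differences up to 2.59, and with the mean of its 5 probe sets Tcf4 differed by 1.72 (limma adjusted p = 0.0190). The E-proteins Tcf12 (0.49, SE 0.43) and Tcf3 (-0.49, SE 0.35) did not pass.

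Of the other limb regulators, 4 of 10 tested were higher and 0 lower, and 7 had an unadjusted p under 0.05 in limma in either direction, as did 35.6% of all genes counted this way. Irx3, an Iroquois homeobox gene of proximal limb, stood at 9.88, 6.25 and 9.15 in Grem1+, against 2.83 to 3.00 in Grem1-, and was at least 21.5-fold higher (difference 5.53, SE 0.79, limma adjusted p = 0.0216). Gli3, a transcription factor of Hedgehog signalling, stood at 7.36, 9.20 and 8.34 in Grem1+, against 3.37 to 3.87 in Grem1-, at least 19.7-fold higher (limma adjusted p = 0.0154), and its second tested probe set also passed. Both had dim Grem1- arrays throughout and Grem1+ arrays far above them. Dlx5, a homeobox gene of bone and limb, stood at 8.77, 6.53 and 6.83 in Grem1+, against 4.21, 3.48 and 3.16 in Grem1- (difference 3.76, SE 0.41, limma adjusted p = 0.0140). Snai2, a zinc finger factor of mesenchyme, stood at 9.65, 9.50 and 9.83 in Grem1+, against 5.52, 5.62 and 7.64 in Grem1-, with a difference of 3.40 (SE 0.50, limma adjusted p = 0.0227) on a probe set of the _x_at class and 5.04 on its other probe set. Zeb2 (-2.21, SE 0.63), Zeb1 (1.16, SE 0.61) and Gli2 (1.02, SE 0.34) did not pass on their highest probe sets. Of the 3 tested Zeb2 probe sets, from -2.55 to -1.83, 1 passed as lower (limma adjusted p = 0.0332), and with their mean Zeb2 differed by -2.20 and passed (adjusted p = 0.00926). Without mouse 3 the difference was 5.14 for Irx3, 4.66 for Gli3, 3.80 for Dlx5 and 4.003 for Snai2. In the fits without the block, Gli3 passed with any mouse left out (adjusted p = 0.0161 to 0.0333). Irx3 lost its call without mouse 1 (0.0575) or mouse 3 (0.0776), Dlx5 without mouse 2 (0.0596) or mouse 3 (0.0664), and Snai2 without mouse 1 (0.0818) or mouse 2 (0.0915). Without the filter on dim probe sets Irx3 and Snai2 lost their calls (adjusted p = 0.0633 and 0.0583). The lost Snai2 calls are those of its _x_at probe set. Both Snai2 probe sets were called higher with all mice kept, and with their mean Snai2 differed by 4.22 (limma adjusted p = 0.00785). That fit also lowered the adjusted p of Irx3, whose values it left unchanged, to 0.0113. The chondrocyte and pan-haematopoietic marker levels given above were measured on the same arrays.

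**Figure D4:**
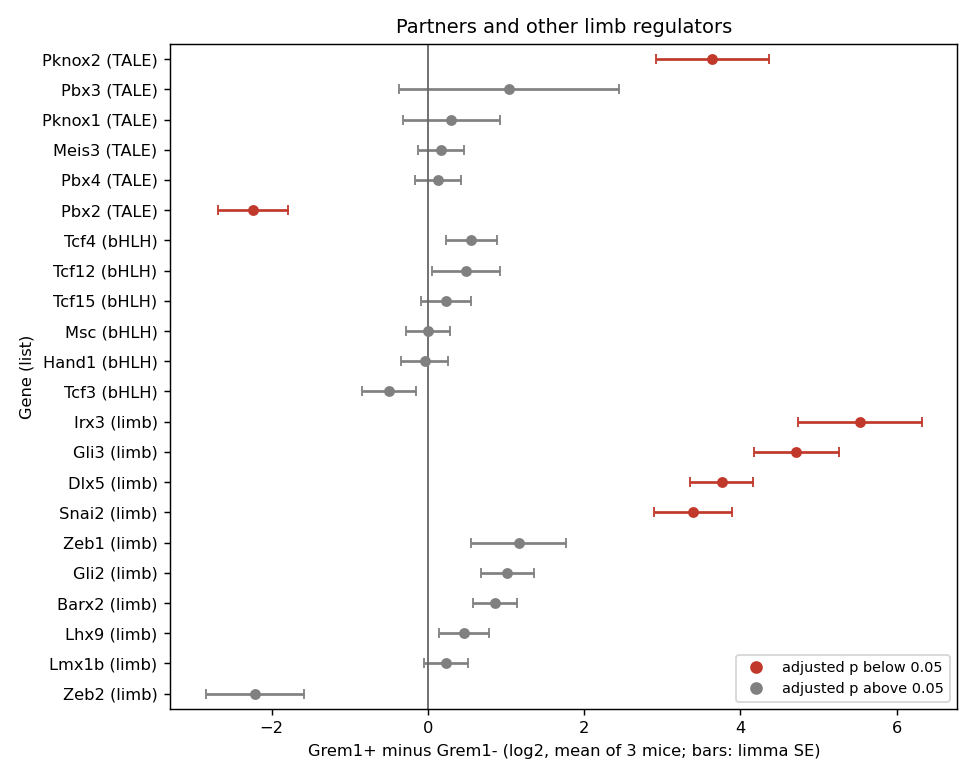
Difference Grem1+ minus Grem1- (log2, mean of 3 mice, horizontal axis) of the 22 tested partner and limb regulator genes (rows), each by its tested probe set with the highest mean, with bars for the limma standard error and red for an adjusted p below 0.05. Irx3, Gli3, Dlx5, Snai2 and Pknox2 lie between 3.40 and 5.53 and Pbx2 at -2.24, while the 16 grey genes lie between -2.21 and 1.16.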

How the data were processed

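RNA of 6 sorted marrow fractions was measured on Affymetrix arrays after amplification, per the labels' protocols. The authors deposited 1 log2 value per probe set and array. GCRMA, which corrects background, normalizes and summarises probes, is named in the submitters' processing notes, with version and settings not given in the sources used here. The base of the log was taken from the range of the values. Of 45101 probe sets, 64 were controls, 34945 had 1 gene symbol in the platform annotation, 932 several and 9160 none.

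Probe sets with 1 symbol and a log2 value above 4 on at least 3 of 6 arrays (18157, covering 10151 genes) were fitted with limma 3.58.1 (lmFit and eBayes in R 4.3.3) as a two-sided test blocked by mouse. Benjamini-Hochberg adjustment ran over all of them (threshold 0.05). Residual degrees of freedom were 2 and prior ones 2.28, so the number of arrays limits the precision. The pairing comes from the series design text, which states that the samples are matched by mouse, and from the number in each title. Deviations from group means of same-numbered arrays correlated at 0.014, 0.052 and 0.031, so these correlations add little to that statement. Xist was high on both arrays numbered 3 (10.60 in Grem1+ and 11.04 in Grem1-) and at most 2.99 on all others. That links the arrays of mouse 3 to each other and does not bear on how mice 1 and 2 were paired. At most 0.00222% of values were equal to 6 decimals between any 2 arrays. Where every array of the lower group was below log2 4, a bound is given with dim values set to 4. The fit was also tested on simulated data, whose outcome is not given here and lends no weight to the differences above.

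The members and lists were chosen with earlier results of these data known. All member probe sets are described. Of each list of partners or limb regulators, up to 6 genes past the threshold with the largest difference and up to 3 others with the highest mean are named, and for each of the 6 members with a tested probe set the 2 genes nearest by profile. Alternatives changed the block, filter, floor, probe set choice, normalization and variance prior, or left out a mouse. Single marker genes and Xist were named after their values were seen.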

Additional observations from a re-analysis of the deposited data

How the results depend on the processing

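The counts of members, 2 higher and 0 lower, were the same under all 13 alternatives that kept every mouse, except 3 higher without the replicate block and with the block as a random effect (Tbx15 1422195_s_at at adjusted p = 0.0391 and 0.0334) and 4 higher with the mean of each gene's probe sets (adding Prrx1 and Twist1). The other block-free change among the named genes was Zeb2 (adjusted p = 0.0497), which made 2 partner or limb genes lower, as did the random block and the probe set mean. All probe sets gave 1095 higher and 666 lower without the filter and 1191 and 864 with 1 probe set per gene, where fewer features were tested. Without the filter 2 partner or limb genes were higher and 0 lower. Leaving out a mouse gave 0 to 1176 higher probe sets (1114 and 1122 for mice 1 and 3 without the block) and 0 to 796 lower ones (761 and 751 for mice 1 and 2), 0 to 2 members higher, and 0 to 3 partner or limb genes higher and 0 to 1 lower, the zeros for all probe sets coming from the fits with the block kept, which have 1 residual degree of freedom fewer. Signs turned for Meis2 1447861_x_at (0.66 with the mean of probe sets, 0.21 without mouse 3), Pitx1 (0.028 without mouse 2), Pknox1 (-0.43 without mouse 1) and Pbx4 (-0.026 without mouse 1), none of which had passed. The cause of these changes was not tested. Quantile, loess and median scaling left Shox2 at 7.09 to 7.18 and Tbx15 1418755_at at 4.79 to 4.86. Values near or below log2 4 limit what can be said of Prrx2, Twist2, Pitx1 and Meis1.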
